A study of Rattus norvegicus with 20 samples.

Results

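The pooled response to 2 nuclear receptors in cultured rat islets was described by pooling the 10 arrays of islets given a virus for Nr4a1 or Nr4a3 and comparing them with all 10 control arrays. The pools follow the sample titles, use 20 of the 20 arrays of the series and hold 5 arrays from each of 4 groups. Islets are the endocrine clusters of the pancreas, and these came from male Wistar rats aged 8 weeks and were kept in RPMI medium with 8 mM glucose and 10% fetal bovine serum. The control groups were islets left untreated and islets given an adenovirus for GFP, a fluorescent protein used as a virus control. The receptor groups received an adenovirus for Nr4a1 or for Nr4a3. Virus was present for 18 h, and islets were collected at 48 h. All 10 receptor arrays but only 5 of the 10 control arrays had therefore met a virus. The sources used here do not name the promoter that drives the delivered genes. In the labels, the protocol for treatment speaks of β-galactosidase and Nkx6-1 viruses instead, so the groups rest on the titles, the characteristics and the series design. The labels call the replicates biological, but which animals lie behind each sample is not given, so a p here speaks only of how these samples vary.

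The NR4A receptors Nr4a1, Nr4a2 and Nr4a3 are orphan nuclear receptors whose ligand pocket is closed, so that their activity follows mainly from how much of the protein a cell makes. They are immediate early genes in many tissues. As monomers they bind an extended nuclear receptor site, the NBRE, in which A bases precede the short core that many nuclear receptors share. The question behind the series is whether cell cycle genes downstream of Nkx6-1 respond to both receptors, Nkx6-1 being a homeodomain factor that supports beta cell identity and division.

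Islet identity was visible in every array: the mean log2 intensity of 23 measured beta cell genes lay between 10.68 and 11.43 in the receptor arrays and between 11.26 and 11.59 in the controls. Genes of exocrine acinar cells, endothelial cells, stellate cells and leukocytes also gave signal, and in whole islets fewer cells of a type and less RNA per cell cannot be told apart. Nr4a3 replicate 2 stood apart. Its mean correlation with the other arrays across genes was 0.941, against 0.982 to 0.989 for the other 19, and genes are not independent replicates. The 3' and 5' control probe sets of beta-actin, whose difference grows as RNA is degraded, differed by 4.62 log2 units in this array and by 1.497 to 2.206 in the other 19. It was kept, and results are given without it where they move.

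The probe sets for the delivered receptors did not separate the pools. Nr4a1 had a log2 intensity from 5.82 to 6.38 in the receptor arrays (median 6.06) and from 5.79 to 6.20 in the controls (median 6.08), a pooled difference of -0.02 ± 0.07 (SE, adjusted p = 0.927). The ranges overlapped almost entirely, also for the 5 Nr4a1 arrays alone, whose mean was 5.99 ± 0.12 (SD, n = 5). Nr4a2 differed by 0.17 ± 0.07 in the pools (adjusted p = 0.141). Against all controls it differed by 0.37 in the Nr4a3 arrays (adjusted p = 0.0237) and by -0.02 in the Nr4a1 arrays (adjusted p = 0.933). The mean of the 3 receptor genes was 6.714 in Nr4a3 replicate 2 and 6.227 to 6.366 in the other Nr4a3 arrays. The difference of the Nr4a3 arrays is not given without that array. A second Nr4a2 probe set differed by 0.23 in the pools (adjusted p = 0.347 over all probe sets). The brightest Nr4a3 probe set was higher by 0.21 ± 0.07 (adjusted p = 0.0446). Its mean was 6.07 ± 0.13 in the Nr4a1 arrays and 5.82 ± 0.19 in the Nr4a3 arrays themselves, against 5.63 ± 0.17 with GFP and 5.83 ± 0.07 in untreated islets (SD, n = 5). Against all controls the Nr4a1 arrays differed by 0.34 (adjusted p = 0.00957) and the Nr4a3 arrays by 0.09 (adjusted p = 0.603). The pooled call of the brightest Nr4a3 probe set was lost without any 1 of 13 arrays, with adjusted p-values up to 0.0906. A dimmer Nr4a3 probe set differed by 0.68 (adjusted p = 0.0106 over all probe sets), and the remaining one by 0.02. The labels do not place these probe sets on the sequence carried by the viruses, so their levels test neither delivery nor labelling.

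Across the genome, genes of cell division, a set of strongly induced single genes and digestive enzyme genes were higher in the receptor arrays, and most endothelial genes and 8 of 23 beta cell genes were lower. Of 14217 genes, 1074 were higher (7.55%) and 578 lower (4.07%) at an adjusted p under 0.05, the threshold for a call throughout, while 3351 genes had an unadjusted p under 0.05. The median log2 difference of all genes was -0.01. The response was lopsided in size: 92 of the higher genes but only 1 of the lower ones, the endothelial receptor gene Kdr, moved by at least 2-fold. A stricter count asks for genes whose 10 receptor arrays all lay beyond all 10 control arrays. It held for 133 higher genes (0.935%) and 31 lower genes (0.218%), and 163 of these 164 were also called. Without Nr4a3 replicate 2, 2064 genes were higher (14.5%) and 1038 lower (7.3%), and 1651 of the 1652 calls were among them.

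The control groups were also compared with each other. Between GFP and untreated islets 0 genes were called (0%) by limma, with 412 at an unadjusted p under 0.05, and no other tool was run. Set against the GFP arrays alone, the receptor arrays were higher for 722 genes (5.08%) and lower for 263 (1.85%). Without Nr4a3 replicate 2 these counts were 1523 and 650, and the lower count was 124, 158, 125 and 151 without GFP replicates 1, 2, 3 and 5 and 172 without Nr4a1 replicate 1. Against the untreated arrays alone 631 genes were higher (4.44%) and 292 lower (2.05%). These counts were 1523 and 778 without Nr4a3 replicate 2, and the lower count was 163, 172 and 181 without untreated replicates 1, 4 and 5. Both comparisons use the same receptor arrays, so their values are only set side by side. Of the 112 genes named here that were called against all controls, 26 lost the call against GFP alone and 29 against untreated alone.

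The receptors themselves differed for few genes. Levels were higher with Nr4a1 than with Nr4a3 for 85 genes (0.598%) and lower for 5 (0.0352%), which became 40 higher without Nr4a1 replicate 1, 45 without Nr4a1 replicate 4 and 49 without Nr4a3 replicate 4. The count of 5 ranged from 2 to 17 as single arrays were left out, with 17 without Nr4a3 replicate 2 and 12 without Nr4a1 replicate 3. Of the 92 genes higher by at least 2-fold in the pooled comparison, 76 had a higher mean with Nr4a1, and 17 differed between the receptors by the test. Of the 164 fully separated genes, 13 did so. A pooled call does not ask that each receptor group differ from the controls. Some genes called in the pools were called against all controls with Nr4a1 but not with Nr4a3 by limma. Among them were Nefm (adjusted p = 0.381 with Nr4a3), Fgb (0.244), Fgg (0.51), Cdh17 (0.304), Anapc16 (0.324), Sesn2 (0.376), Hnf4a (0.232), Ret (0.184), Itih3 (0.114), Pdx1 (0.0961) and Nkx6-1 (0.522). Cdkn1c was called with Nr4a3 (0.00599) but not with Nr4a1 (0.0729).

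**Figure D1:**
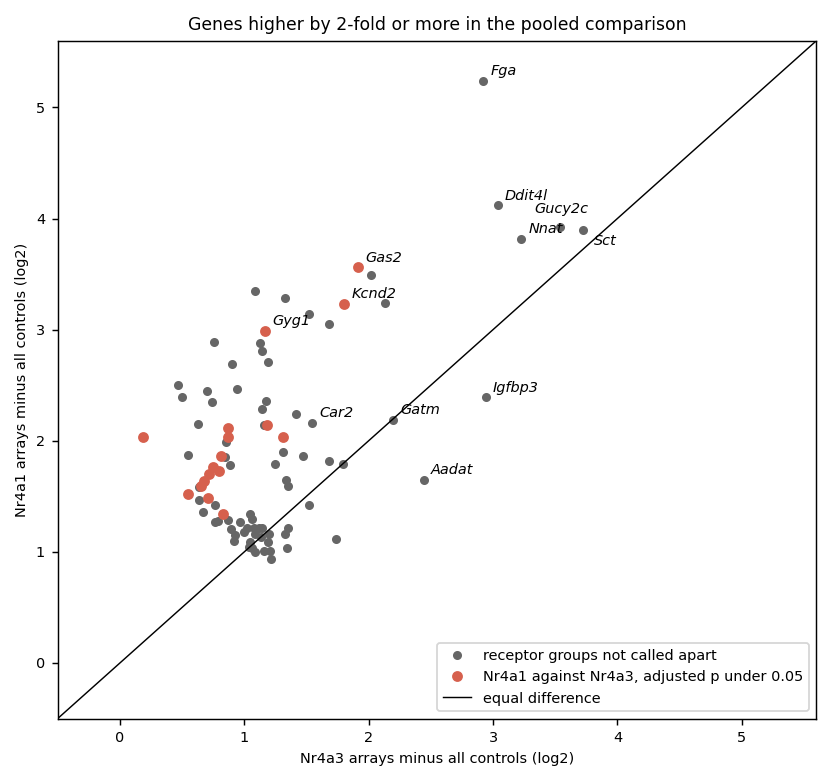
Log2 difference from all 10 controls for the 92 genes higher by at least 2-fold in the pooled comparison, Nr4a3 arrays on the horizontal axis and Nr4a1 arrays on the vertical axis. The line marks equal differences, 76 genes lie above it, and the 17 red points are genes called between the receptors.

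The largest rises that separated all 10 receptor arrays from all 10 controls included 2 genes best known from the gut. Sct encodes secretin, a hormone of gut endocrine cells, and Gucy2c encodes guanylate cyclase C, the gut receptor for guanylin peptides. Sct had a log2 intensity of 9.97, 9.62, 9.20, 9.49 and 9.29 in the Nr4a1 arrays and of 10.40, 8.63, 10.17, 8.41 and 9.07 in the Nr4a3 arrays. It was 5.79, 5.09, 5.23, 5.44 and 6.15 in the GFP arrays and 5.39, 5.58, 5.89, 5.68 and 5.93 in the untreated ones. The lowest receptor array thus lay more than 2 log2 units above the highest control, and the difference was 3.81 ± 0.22 (SE), or 14.0-fold (adjusted p = 7.11e-10). Gucy2c ran from 8.79 to 10.68 (median 10.39) against 5.93 to 6.95 in the controls (median 6.48), 13.3-fold (log2 3.73 ± 0.19, adjusted p = 9.55e-11). Another gut gene, Cdh17, an intestinal cadherin, rose by 0.74 ± 0.17 (adjusted p = 0.00745), although its ranges overlapped. These were the 3 called genes among 24 gut epithelial and enteroendocrine genes, against 7.55% of all genes higher. The median difference of the 24 was 0.04 against -0.01 for all genes.

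Nnat had the smallest p of all genes. It encodes neuronatin, a small membrane protein of the endoplasmic reticulum from an imprinted gene. Its log2 intensity was 13.04, 12.44, 12.19, 12.93 and 12.64 with Nr4a1 and 12.53, 11.76, 12.46, 11.99 and 11.53 with Nr4a3. The GFP arrays gave 8.71, 8.82, 8.66, 9.24 and 8.76 and the untreated arrays 9.27, 8.23, 8.55, 8.99 and 9.05. Every receptor array was more than 2 log2 units above every control, a difference of 3.52 ± 0.15 or 11.5-fold (adjusted p = 1.45e-11). Against GFP alone it was 3.51 and against untreated alone 3.53. Ddit4l, an inhibitor of the growth kinase complex mTORC1, ran from 8.05 to 10.997 (median 9.91) against 5.56 to 6.55 (median 6.02), 12-fold higher (log2 3.58 ± 0.29, adjusted p = 1.47e-07).

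Fga, which encodes the alpha chain of fibrinogen and is best known from liver, had the largest difference and the widest spread. Its log2 intensity was 10.96, 11.55, 7.98, 11.44 and 11.68 with Nr4a1, 10.23, 9.02, 8.81, 7.48 and 6.47 with Nr4a3, and 5.13 to 6.22 (median 5.35) in the controls. The lowest receptor array, Nr4a3 replicate 5 at 6.47, lay just above the highest control at 6.22. The pooled difference was 4.08 ± 0.45, or 16.9-fold (adjusted p = 4.57e-06), and a second Fga probe set differed by 2.66. The other fibrinogen chains moved less: Fgb by 1.09 ± 0.27 (adjusted p = 0.00943) and Fgg by 0.72 ± 0.20 (adjusted p = 0.0209), with overlapping ranges in both.

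Gas2, a growth arrest gene whose protein binds the actin cytoskeleton, was higher in every Nr4a1 array than in any Nr4a3 array, and in every Nr4a3 array than in any control. It had a log2 intensity of 10.97, 10.80, 10.84, 11.03 and 9.86 with Nr4a1, 9.11, 9.40, 9.22, 8.46 and 9.08 with Nr4a3, and 6.89 to 7.45 (median 7.11) in the controls. The difference was 2.74 ± 0.13, or 6.68-fold (adjusted p = 8.4e-11), and the Nr4a1 arrays were higher than the Nr4a3 arrays by 1.65 (adjusted p = 0.000194). The promoter windows of 3 genes are shown because they are those among the 12 largest rises in which a script found the receptor core, AGGTCA, on either strand. Each runs from 250 bases before to 50 bases after the start of transcription in RefSeq (GRCr8), 5′ to 3′ along the gene, with the motif in capitals. The windows lie at chr1:110618271-110618570 (plus strand) for Gas2, chr2:228801457-228801756 (plus strand) for Ddit4l and chr16:34555131-34555430 (minus strand) for Aadat.
Gas2: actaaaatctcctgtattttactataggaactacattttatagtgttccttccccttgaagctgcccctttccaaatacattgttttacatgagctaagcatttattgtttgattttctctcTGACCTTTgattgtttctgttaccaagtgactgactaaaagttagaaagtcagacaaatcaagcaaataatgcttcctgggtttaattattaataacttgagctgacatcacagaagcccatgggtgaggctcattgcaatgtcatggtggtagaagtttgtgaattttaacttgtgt
Ddit4l: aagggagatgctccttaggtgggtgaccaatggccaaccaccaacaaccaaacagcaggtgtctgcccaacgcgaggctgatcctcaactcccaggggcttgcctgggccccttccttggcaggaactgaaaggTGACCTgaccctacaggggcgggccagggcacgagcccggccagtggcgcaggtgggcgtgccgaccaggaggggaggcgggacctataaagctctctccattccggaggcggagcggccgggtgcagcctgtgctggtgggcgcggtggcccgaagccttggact
Aadat: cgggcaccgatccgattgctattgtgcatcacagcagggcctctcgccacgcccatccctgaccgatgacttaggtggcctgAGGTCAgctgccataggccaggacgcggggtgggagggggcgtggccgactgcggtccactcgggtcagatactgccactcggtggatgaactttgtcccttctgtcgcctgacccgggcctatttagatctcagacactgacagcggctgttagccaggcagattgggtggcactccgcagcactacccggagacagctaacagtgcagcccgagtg
The Gas2 window holds the full NBRE, AAAGGTCA, on the opposite strand from 128 bases before the start. Ddit4l and Aadat hold only AGGTCA, from 116 and 168 bases before the start. Each NBRE contains an AGGTCA, so the motifs overlap.

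Of the 12 largest rises, 8 had a window in the table, 3 of these held AGGTCA and 1 held AAAGGTCA. Among all 33469 windows 16.18% held AGGTCA and 1.43% held AAAGGTCA, and among measured genes 13.7% and 1.19%. Genes called higher held AAAGGTCA in 1.8% of windows and genes called lower in 1.11%. Among fully separated higher genes it was in 4 of 106 windows (3.77%) and among lower ones in 2 of 28 (7.14%). A match is a description of letters in a 300-base window and no sign of binding.

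The other large rises were in enzymes, a channel and a binding protein. Aadat, a kynurenine and aminoadipate aminotransferase, ran from 5.29 to 7.57 (median 6.17) against 4.11 to 4.53 (median 4.34), 4.13-fold higher (log2 2.05 ± 0.21). It was among the few with a higher mean in the Nr4a3 arrays, 6.78 ± 0.86 against 5.99 ± 0.53 (SD, n = 5), a difference that was not called. Gyg1, glycogenin, the primer of glycogen synthesis, was 4.22-fold higher (log2 2.08 ± 0.12). Its 5 Nr4a1 arrays, from 12.31 to 13.03, all lay above its 5 Nr4a3 arrays, from 10.45 to 11.45, and these above the controls, from 9.56 to 10.02. The difference between the receptors was 1.83 (adjusted p = 2.14e-05). Kcnd2, a voltage-gated potassium channel, rose 5.73-fold (log2 2.52 ± 0.22) and was also higher with Nr4a1, by 1.43 (adjusted p = 0.0342). Nr4a3 replicate 2, at 9.29, was the exception in its group, where the others lay between 6.80 and 7.53. Car2, carbonic anhydrase 2, rose 3.61-fold (log2 1.85 ± 0.14) with 9.78 to 11.59 against 8.57 to 9.08. It was the only called gene of 14 duct cell genes, against 7.55% of all genes higher.

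Gatm, an enzyme of creatine synthesis, rose 4.57-fold (log2 2.19 ± 0.23) on its brightest probe set, while a dimmer probe set differed by -0.08. Igfbp3, a binding protein for insulin-like growth factors, ran from 9.50 to 11.94 (median 10.95) against 7.09 to 9.31 (median 8.49), 6.35-fold higher (log2 2.67 ± 0.29), and its second probe set differed by 2.65. It was the only higher gene of 17 genes of that growth factor axis, and 2 were higher without Nr4a3 replicate 2. Igf1r, the receptor, fell by 0.67 (adjusted p = 0.000502) and the binding protein gene Igfbp1 by 0.37 (adjusted p = 0.000851). Those 2 lower genes became 4 without Nr4a3 replicate 2 and 5 without Nr4a1 replicate 3. Of all genes 7.55% were higher and 4.07% lower, and 14.5% and 7.3% without Nr4a3 replicate 2.

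**Figure D2:**
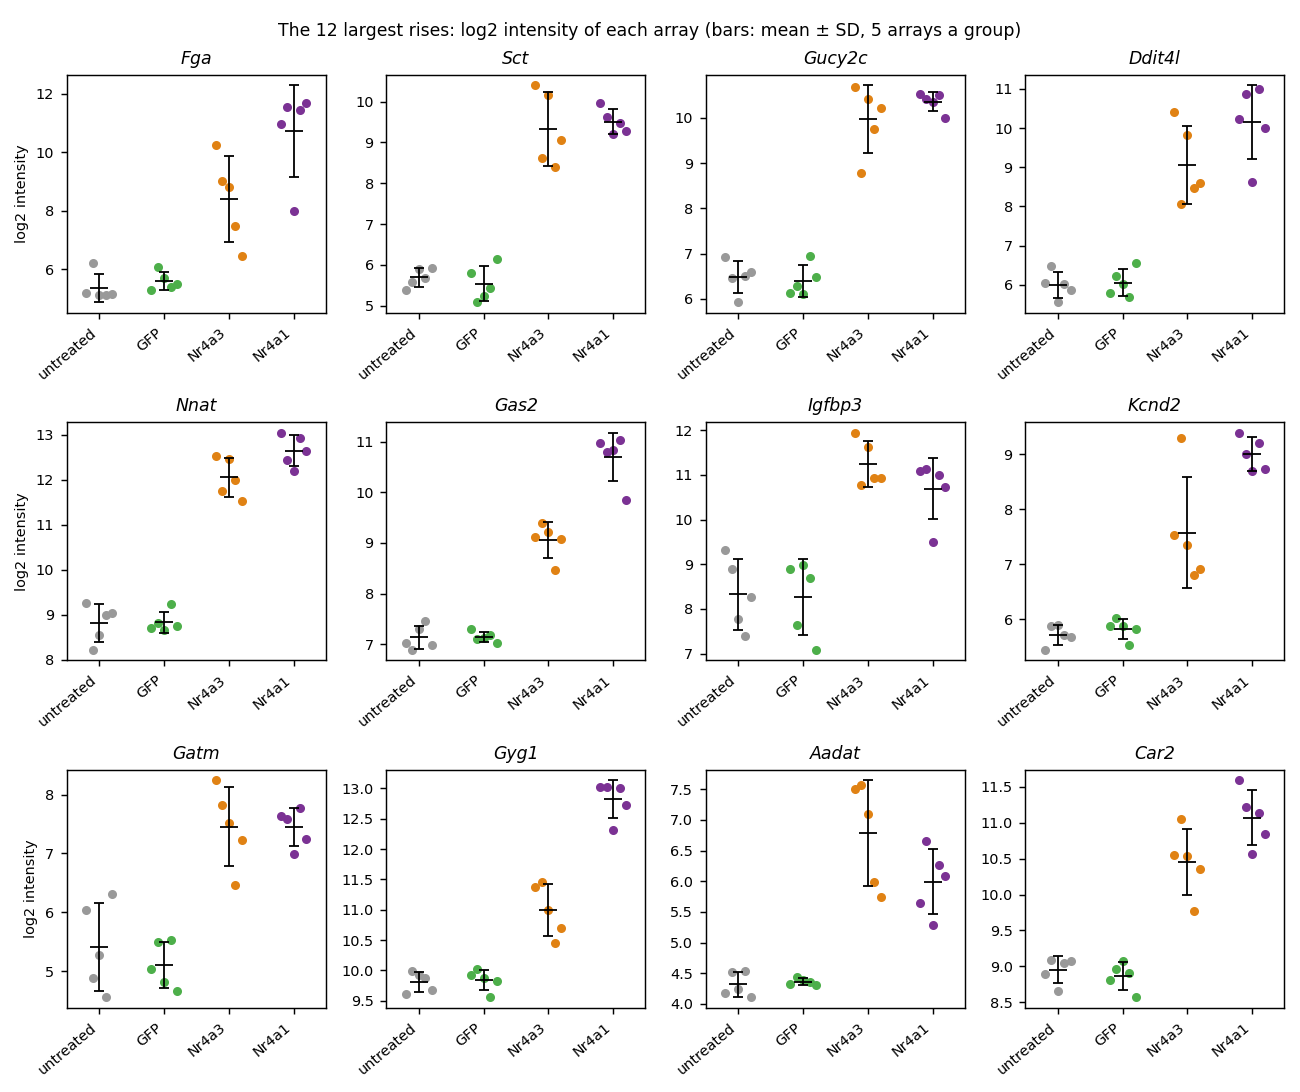
Log2 intensity of each array for the 12 largest rises that separated the pools, by group, with bars for the mean ± SD of 5 arrays. In each panel all 10 receptor arrays lie above all 10 control arrays, and for Gas2 and Gyg1 the 5 Nr4a1 arrays also lie above the 5 Nr4a3 arrays.

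Cell division genes rose broadly and by less. Of 57 measured genes of the G2 phase and mitosis, 46 rose and 0 fell, with a median log2 difference of 0.66, while 51 rose and 1 fell without Nr4a3 replicate 2. Of 50 genes of the G1/S transition and DNA replication, 32 rose and 0 fell, with a median of 0.36. Both shares stand against 7.55% higher over all genes. Without Nr4a3 replicate 2, 14.5% of all genes were higher and 7.3% lower. Against GFP alone 43 and 26 of these genes rose, where 5.08% of all genes were higher. Against untreated alone 36 and 19 rose, where 4.44% were higher. The direction was shared by both receptors: the list mean for G2 and mitosis was 7.34 ± 0.18 with Nr4a1 and 7.35 ± 0.23 with Nr4a3, against 6.66 ± 0.19 with GFP and 6.77 ± 0.26 in untreated islets (SD, n = 5).

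By role, 12 of 17 mitotic cyclins and kinases, 9 of 12 kinetochore and centromere genes, 15 of 17 spindle and cytokinesis genes and 10 of 11 chromatin and other genes rose. Nuf2, a kinetochore subunit, ran from 7.57 to 8.32 (median 8.14) against 6.53 to 7.28 (median 6.87), 2.19-fold higher (log2 1.13 ± 0.12, adjusted p = 4.57e-06). Its groups did not overlap, nor did those of Pbk, a mitotic kinase, at 2.25-fold (log2 1.17 ± 0.14), and Spc25, another kinetochore subunit, at 2.26-fold (log2 1.18 ± 0.16). Ect2, the exchange factor that starts cytokinesis, rose 2.77-fold (log2 1.47 ± 0.19), with 7.30 to 8.30 against 5.66 to 7.34, ranges that overlapped narrowly.

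The promoters of Spc25 and Ect2 are shown because both carry the pair of motifs that mark many G2 and M phase promoters, the cell cycle homology region TTTGAA and the CCAAT box. They lie at chr3:74396669-74396968 and chr2:111966577-111966876, both on the minus strand (RefSeq, GRCr8), with both motifs in capitals.
Spc25: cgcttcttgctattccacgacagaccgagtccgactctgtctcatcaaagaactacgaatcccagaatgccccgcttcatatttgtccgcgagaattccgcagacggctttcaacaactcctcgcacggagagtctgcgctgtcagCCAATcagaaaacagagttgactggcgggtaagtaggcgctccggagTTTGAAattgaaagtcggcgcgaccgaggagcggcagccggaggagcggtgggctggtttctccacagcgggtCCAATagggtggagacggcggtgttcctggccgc
Ect2: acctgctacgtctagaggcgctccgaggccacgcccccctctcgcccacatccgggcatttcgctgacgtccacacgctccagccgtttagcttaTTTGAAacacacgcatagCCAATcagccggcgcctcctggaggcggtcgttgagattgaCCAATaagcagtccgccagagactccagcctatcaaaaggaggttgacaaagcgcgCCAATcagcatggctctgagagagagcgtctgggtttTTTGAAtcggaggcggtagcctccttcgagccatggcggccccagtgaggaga
Of the 50 G2 and mitosis genes with a window, 66.0% held TTTGAA and 74.0% held CCAAT on either strand, against 13.26% and 38.59% of measured genes. AAAGGTCA was in 0 of the 50, and 14.0% held AGGTCA. The genes were listed for their function, and the motif shares do not depend on the arrays.

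Of the genes that belong to S phase entry, Ccne1, which encodes cyclin E1, was the clearest. Its log2 intensity was 7.54, 7.21, 7.15, 6.998 and 7.32 with Nr4a1 and 7.90, 7.38, 7.58, 7.09 and 7.38 with Nr4a3, and no control exceeded 6.85. It rose 1.85-fold (log2 0.89 ± 0.10, adjusted p = 4.84e-06). Pole, the leading strand polymerase, rose by 0.54 ± 0.07. The clamp loader gene Rfc2 rose by 0.43 ± 0.06 and the histone chaperone gene Chaf1a by 0.48 ± 0.07, all at adjusted p-values from 3.85e-05 to 0.000135. Licensing and helicase genes rose in 11 of 14 cases, polymerase and fork genes in 12 of 21, nucleotide synthesis genes in 3 of 4 and regulators in 6 of 11.

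Of 10 genes that the study is known to have examined, 5 rose and 1 fell, against 7.55% of all genes higher and 4.07% lower. Their choice by the study makes them no independent evidence. Ube2c, which passes ubiquitin to the targets of the anaphase-promoting complex, was 2.27-fold higher (log2 1.18 ± 0.17, adjusted p = 0.000102), with 8.31 to 9.27 (median 8.72) against 6.88 to 8.38 (median 7.48). The highest control was untreated replicate 5 at 8.38, followed by GFP replicate 4 at 8.15. Mki67, the proliferation antigen, rose 2.06-fold (log2 1.04 ± 0.19, adjusted p = 0.000795). E2f1, the S phase transcription factor, rose by 0.47 ± 0.12 (adjusted p = 0.0122), and its p was 0.118 with untreated islets as the only controls. Uhrf1, which maintains DNA methylation at replication, rose by 0.52 ± 0.13 (adjusted p = 0.0148), with 0.0888 against GFP alone and 0.0516 against untreated alone. Nkx6-1 fell by 0.27 (adjusted p = 0.0415), a call that was lost without any 1 of 12 arrays, with adjusted p-values up to 0.0811. Cdkn1a, which encodes the inhibitor p21, differed by -0.12 (adjusted p = 0.532), and Cdk5r1, Vgf and Fos differed by 0.08, 0.02 and 0.26, at adjusted p-values of 0.519 to 0.982.

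Among 19 genes of the anaphase-promoting complex and its regulators, 7 rose and 0 fell, against 7.55% of all genes higher. Without Nr4a3 replicate 2, 12 rose, against 14.5% of all genes. Against untreated alone 4 rose, where 4.44% of all genes were higher. Besides Ube2c these included the subunits Cdc16 (0.27 ± 0.05) and Anapc16 (0.31 ± 0.06) and the activator Cdc20 (0.57 ± 0.12, with 4 dimmer probe sets between -0.05 and 0.34). Of 12 cyclin-dependent kinase inhibitors and retinoblastoma family genes, 3 rose: Cdkn2d, which encodes p19, by 0.65 ± 0.08, the phosphatase gene Cdkn3 by 1.08 ± 0.20 and Cdkn1c, which encodes p57, by 0.40 ± 0.08. Cdkn2d was higher with Nr4a1 than with Nr4a3 by 0.61 (adjusted p = 0.00855). Of 16 targets of p53, 0 rose and 2 fell, Sesn2 by 0.37 and Zmat3 by 0.23, where 4.07% of all genes were lower. Without Nr4a3 replicate 2, 3 rose, where 14.5% of all genes were higher. Sesn2 was not called against untreated alone (adjusted p = 0.0567). Zmat3 was called neither against GFP alone (0.0672) nor against untreated alone (0.0745).

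Cell division genes also varied among the controls. The list mean for G2 and mitosis was highest in untreated replicate 5 (7.06) and GFP replicate 4 (6.99) and lowest in untreated replicate 3 (6.405). All receptor arrays but 1, Nr4a3 replicate 4 at 7.04, lay above every control. For G1/S genes the lowest receptor array was 7.32, and untreated replicate 5, at 7.34, was the only control above it. The GFP arrays did not exceed 7.12.

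**Figure D3:**
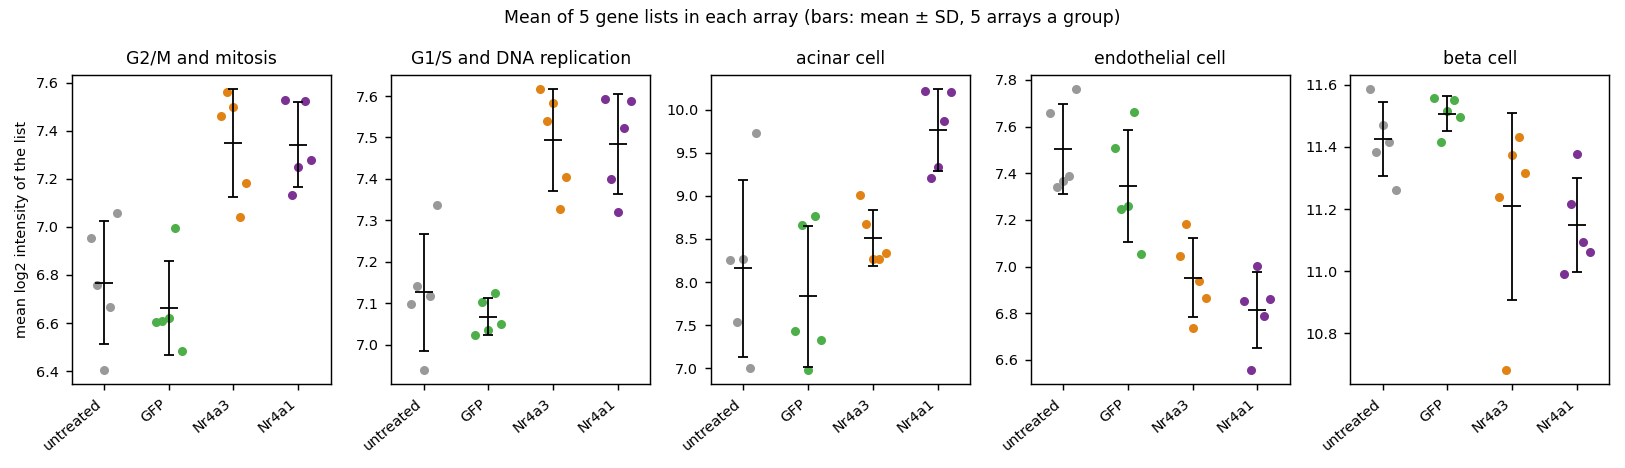
Mean log2 intensity of 5 gene lists in each array by group, with bars for the mean ± SD of 5 arrays. The cell division lists are higher and the endothelial list lower in both receptor groups, whereas the acinar list is high in all 5 Nr4a1 arrays and in untreated replicate 5.

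Digestive enzyme genes of acinar cells were higher in the receptor arrays, with large spread. Of 35 measured acinar genes, 19 rose and 0 fell, against 7.55% of all genes higher, with a median log2 difference of 1.12. Against GFP alone 14 rose, where 5.08% of all genes were higher, and against untreated alone 10, where 4.44% were higher. Of the 19, 17 were among the 27 enzyme and zymogen granule genes. Pnlip, pancreatic lipase, ran from 7.86 to 10.88 (median 8.91) against 6.12 to 8.86 (median 6.94), 4.01-fold higher (log2 2.00 ± 0.31, adjusted p = 0.000222). Cpb1, carboxypeptidase B, rose 5.04-fold (log2 2.33 ± 0.42), the inhibitor gene Spink1, named after its values were seen, 6.44-fold (log2 2.69 ± 0.49), Serpini2 2.01-fold and the zymogen granule gene Cuzd1 1.47-fold. Ranges overlapped in each, and 0 acinar genes were fully separated. Against all controls Pnlip and Cpb1 differed by 2.88 and 3.14 with Nr4a1 (adjusted p = 3.75e-05 and 0.000353). With Nr4a3 alone they differed by 1.125 and 1.52 and were not called (adjusted p = 0.126 and 0.128). Serpini2 and Cuzd1 were called with each receptor (adjusted p = 0.00963 and 0.0272 with Nr4a3).

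The acinar list was described for each receptor. Its median against all controls was 1.88 for Nr4a1 and 0.46 for Nr4a3, where the median of the G2 and mitosis list was 0.64 for each receptor, and 1 acinar gene was called between the receptors. Acinar list means were 9.20 to 10.22 in the Nr4a1 arrays, 8.27 to 9.01 in the Nr4a3 arrays, 6.98 to 8.77 in the GFP arrays and 6.999 to 9.73 in the untreated arrays. The highest control was again untreated replicate 5. Leaving out that array, singled out here for its high acinar mean, in itself favours a higher count. Without it 26 of 35 acinar genes rose, while 7.5% of all genes were higher and 3.92% lower. These genes are the markers of a cell type that islet isolation carries over, and the part of carried-over acinar tissue in their rise was not tested.

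The falls were small, and endothelial genes led them. Kdr and Flt1 encode the receptors for vascular endothelial growth factor. Kdr was 7.42, 7.21, 7.95, 7.93 and 8.07 with Nr4a1 and 8.15, 6.89, 7.70, 8.07 and 7.33 with Nr4a3. It was 8.83, 8.73, 8.46, 9.37 and 8.19 with GFP and 9.34, 8.45, 8.59, 8.73 and 9.47 in untreated islets. The lowest control, GFP replicate 5, was only just above the highest receptor array, and the fall was 2.21-fold (log2 -1.14 ± 0.19, adjusted p = 0.000322). A dim second Kdr probe set differed by -0.02. Flt1 fell 1.74-fold (log2 -0.80 ± 0.11), from 7.95 to 8.75 in the controls to 7.18 to 7.86. Adgrl4, an adhesion receptor of endothelium, fell by 0.67.

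Of 23 measured endothelial genes 18 fell and 0 rose, against 4.07% of all genes, with a median of -0.55. Against GFP alone 9 fell (median -0.46), where 1.85% of all genes were lower, and against untreated alone 16 (median -0.60), where 2.05% were lower. Emcn, which encodes the endothelial sialomucin endomucin, fell 1.85-fold and Nrp1, a co-receptor for the same growth factor, 1.72-fold. The endothelial list mean ran from 6.56 to 7.18 in the receptor arrays and from 7.05 to 7.76 in the controls. The Emcn promoter is shown beside that of Gas2 because it carries the same 8 letters in a gene that fell. It lies at chr2:228564289-228564588 (plus strand; RefSeq, GRCr8), with the NBRE in capitals on the opposite strand from 222 bases before the start.
Emcn: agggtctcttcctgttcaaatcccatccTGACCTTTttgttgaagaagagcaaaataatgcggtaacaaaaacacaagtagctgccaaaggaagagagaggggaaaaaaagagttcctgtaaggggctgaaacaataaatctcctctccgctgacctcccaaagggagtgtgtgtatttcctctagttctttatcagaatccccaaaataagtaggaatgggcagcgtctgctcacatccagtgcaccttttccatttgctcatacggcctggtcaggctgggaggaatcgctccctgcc
Markers of other cells of the islet gave few calls, to be read against 7.55% of all genes higher and 4.07% lower. Of 26 fibroblast and stellate cell genes 0 rose and 1, Pdgfrb, fell (by 0.54), with a list median of -0.32 and 23 of 26 differences below 0. The lower count was 6 without Nr4a3 replicate 5. The Pdgfrb call was lost without any 1 of 9 arrays (adjusted p up to 0.071). Of 23 macrophage and leukocyte genes 0 were called, with a median of -0.19. Of 13 neuron and Schwann cell genes only Nefm, a neurofilament gene, rose, by 0.66, and a further gene rose without Nr4a3 replicate 2 or Nr4a1 replicate 5.

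Beta cell genes fell in part. Of 23 measured, 8 fell and 0 rose, against 4.07% of all genes lower, with a median of -0.28. Against GFP alone 5 fell, where 1.85% of all genes were lower, and against untreated alone 5, where 2.05% were lower. Gipr, the receptor for the incretin GIP, fell 1.55-fold (log2 -0.63 ± 0.08, adjusted p = 3.78e-05) from 9.12 to 9.59 in the controls to 8.39 to 9.06. Kcnj11, the pore of the ATP-sensitive potassium channel, fell 1.36-fold, and its other probe sets differed by -0.56 and -0.41. Both genes were fully separated. Pdx1, a master factor of the beta cell, fell 1.41-fold (log2 -0.49 ± 0.09, adjusted p = 0.000874) and the calcium channel gene Cacna1c 1.27-fold. Named after their values were seen, the insulin gene activator Mafa fell 1.69-fold, the glucose transporter gene Slc2a2 1.37-fold and the oxidase gene Ero1b 1.32-fold. Mafa had an adjusted p of 0.0648 and Slc2a2 of up to 0.0703 with only 1 kind of control. The beta cell list mean was 10.68 in Nr4a3 replicate 2 and 10.99 to 11.43 in the other receptor arrays. Without Nr4a3 replicate 2, 10 beta cell genes fell, where 7.3% of all genes were lower. Of 13 genes of other hormone cells 3 fell: the arginine transporter Slc7a2 by 0.48, the delta cell factor Hhex by 0.28 and the alpha cell gene Gc by 0.19, the last call lost without any 1 of 7 arrays.

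The remaining separated falls were in single genes. Pim2, a survival kinase, fell 1.76-fold (log2 -0.81 ± 0.15), with Nr4a3 replicate 2 lowest at 8.09. Cdh1, which encodes E-cadherin, the adhesion molecule of islet epithelium, ran from 10.50 to 10.997 against 11.22 to 11.41, 1.44-fold lower (log2 -0.52 ± 0.05, adjusted p = 1.11e-06). A second Cdh1 probe set near the floor differed by 0.07. Asap2, a regulator of the small GTPase Arf, fell 1.49-fold, Tbcel, a tubulin chaperone relative, 1.45-fold, the sterol carrier gene Stard5 1.39-fold, the cilium gene Traf3ip1 1.38-fold and Midn 1.35-fold. Without untreated replicate 1, Nr4a1 replicate 1 or GFP replicate 2 the Midn call was lost (adjusted p up to 0.0606).

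**Figure D4:**
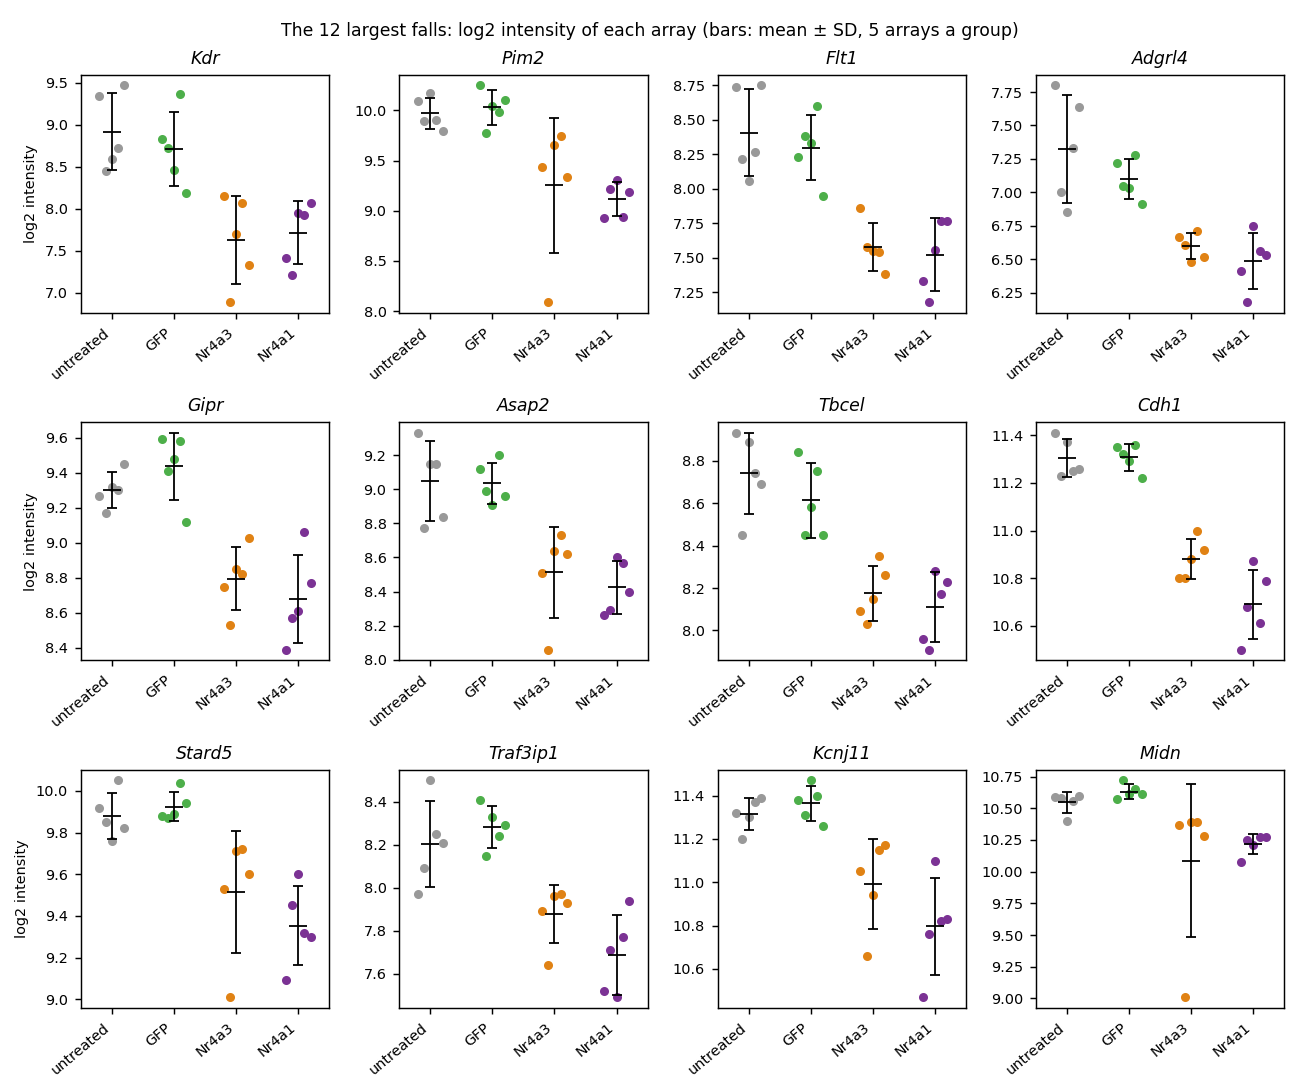
Log2 intensity of each array for the 12 largest falls that separated the pools, by group, with bars for the mean ± SD of 5 arrays. All 10 receptor arrays lie below all 10 controls in each panel, and Nr4a3 replicate 2 is the lowest receptor array for Kdr, Pim2, Asap2, Stard5 and Midn.

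Liver, metabolic and stress genes gave few calls, to be read against 7.55% of all genes higher and 4.07% lower. Of 26 genes of liver plasma proteins 5 rose and 2 fell. Besides the fibrinogen chains, the heme scavenger gene Hpx rose by 1.79 ± 0.53 and the protease inhibitor gene A2m by 0.47 ± 0.14, calls lost without any 1 of 9 and 8 arrays. The higher count was 3 without GFP replicate 1 or untreated replicate 3. Il6r, the interleukin 6 receptor, fell by 0.74 (adjusted p = 0.000114) and Itih3 by 0.93 (adjusted p = 0.00279).

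Of 18 genes of cholesterol synthesis and uptake 5 rose. Fdft1, squalene synthase, ran from 9.00 to 9.77 against 8.37 to 8.94 (log2 0.78 ± 0.08, adjusted p = 4.09e-06), and the sterol carrier gene Stard4 rose by 0.62 ± 0.07, both fully separated. The pathway enzymes Nsdhl, Pmvk and Idi1 rose by 0.33, 0.28 and 0.29, and the Idi1 call was lost without any 1 of 12 arrays. Of 22 genes of fatty acid metabolism, Acadm and Acadvl, dehydrogenases of beta oxidation, rose by 0.23 and 0.30 in the pooled comparison. Against all controls they differed by 0.34 and 0.67 with Nr4a1. With Nr4a3 they differed by 0.12 and -0.06 (adjusted p = 0.469 and 0.815). The lipogenic enzyme gene Acly fell by 0.37 and Pdk4, which restrains pyruvate oxidation, by 0.80. The Acadm and Acadvl calls were lost without any 1 of 6 and 8 arrays, and 5 genes of the list rose without Nr4a3 replicate 2. Of 23 glycolysis and gluconeogenesis genes 3 rose, namely Fbp1 (0.47), Eno3 (0.39) and Pgam1 (0.18), and 7 without Nr4a3 replicate 2. Against GFP alone 0 of the 23 rose, and against untreated alone 1, Eno3 (adjusted p = 0.0489). The Pgam1 call was also lost without any 1 of 14 arrays (adjusted p up to 0.0867). Of 37 oxidative phosphorylation genes Cyc1 (0.29) and Sdha (0.18) rose. Against all controls they differed by 0.45 and 0.29 with Nr4a1, and by 0.13 and 0.08 with Nr4a3 (adjusted p = 0.463 and 0.533). The count of higher genes in this list was 20 without Nr4a3 replicate 2, where 14.5% of all genes were higher.

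Xbp1, the transcription factor of the unfolded protein response and of secretory cells, was fully separated at 12.10 to 12.89 against 11.87 to 12.08 (log2 0.63 ± 0.07, adjusted p = 3.86e-06). It was the only called gene of 24 in that response, which became 3 without Nr4a3 replicate 2. Of 21 interferon response genes 2 were called higher, a share near the 7.55% of all genes. Usp18 (0.75 ± 0.13) and Irf7 (0.38 ± 0.10) rose. Against GFP alone they differed by 0.87 and 0.45. Against untreated alone they differed by 0.635 and 0.31, where Irf7 was not called (adjusted p = 0.165). Of 22 immediate early genes only Jund was called, lower by 0.23. The count of lower genes reached 3 without Nr4a3 replicate 3, and the Jund call was lost in the mean of its probe sets (adjusted p = 0.726). Of 25 chemokine and NF-kB genes, 24 ribosomal protein genes, 21 apoptosis genes and 21 genes that beta cells normally silence, 0 were called. Up to 2 apoptosis genes rose and up to 2 of the silenced genes fell when single arrays were left out, and 2 ribosomal genes rose without Nr4a3 replicate 2.

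Genes reported as NR4A targets in other tissues did not move as 1 group: of 31 measured 5 rose and 2 fell, with a median of -0.003. Of all genes 7.55% were higher and 4.07% lower. The enzymes and transporter of amine and retinoid metabolism led the rises. Aldh1a1, retinaldehyde dehydrogenase, ran from 6.07 to 7.84 against 5.33 to 6.67 (log2 1.16 ± 0.15) and was higher with Nr4a1 by 0.96 (adjusted p = 0.033). Ddc, the decarboxylase that makes dopamine and serotonin, rose by 1.05 ± 0.16, and Slc18a2, the vesicular monoamine transporter, by 0.72 ± 0.12, with other probe sets at 1.26 and 0.44. Fbp1 and Eno3 were the other higher genes and Ret, the GDNF receptor (lower by 0.47), and Pdk4 the lower ones.

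Granule, nutrient and other nuclear receptor genes complete the lists, to be read against 7.55% of all genes higher and 4.07% lower. Without Nr4a3 replicate 2 these shares were 14.5% and 7.3%. Of 22 exocytosis genes Chgb, chromogranin B, rose by 0.37 ± 0.06 and Stx1a, a membrane fusion protein, by 0.24, the latter lost without any 1 of 14 arrays. The calcium sensor gene Syt7 fell by 0.50 (adjusted p = 0.000509). Of 22 genes of amino acid transport and mTORC1 control, Ddit4l and the glutamine transporter gene Slc38a2 (0.33 ± 0.06) rose, both fully separated. Sesn2, the mTOR inhibitor gene Deptor (by 0.19) and the transporter gene Slc43a2 (by 0.54) fell. Slc43a2 lost its call without any 1 of 13 arrays, Deptor in the mean of its probe sets (adjusted p = 0.877), and 5 genes fell without Nr4a3 replicate 2. Of 39 nuclear receptor genes outside the NR4A family, Rarb, a retinoic acid receptor, rose by 0.59, and 5 fell, or 8 without Nr4a3 replicate 2. These were Hnf4a (by 0.36), the glucocorticoid receptor gene Nr3c1 (by 0.27, fully separated), the bile acid receptor gene Nr1h4 (by 0.32), the mineralocorticoid receptor gene Nr3c2 (by 0.31) and Rara (by 0.30, lost without Nr4a1 replicate 1, GFP replicate 5 or Nr4a1 replicate 5, adjusted p up to 0.0524).

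**Figure D5:**
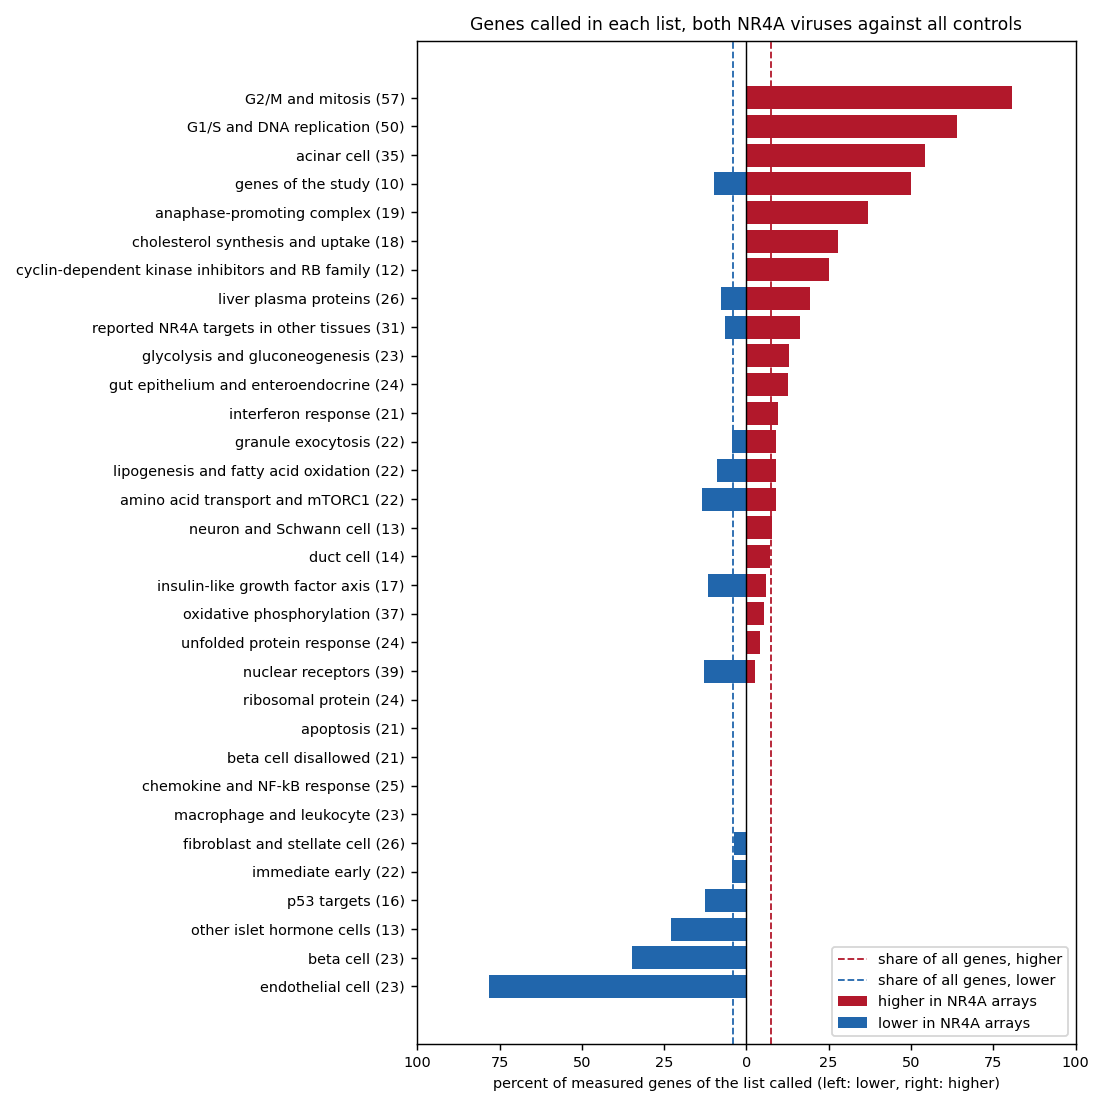
Percent of measured genes of each list called in the pooled comparison, lower to the left and higher to the right, with the number measured in parentheses. Dashed lines mark all genes (7.55% higher and 4.07% lower), and the cell division, acinar and endothelial lists reach farthest from them.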

How the data were processed

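Expression was measured on 20 microarrays of rat islets. The deposited values are linear intensities per probe set, made by the authors with RMA per the submitters' processing notes, which name no version. Array medians were 98.9 to 103, and the number of arrays limits the precision. Here log2 was taken, and of 31099 probe sets those with 1 gene symbol (20826) were kept, then the brightest per gene by its mean over all arrays, giving 14217 genes. limma 3.58.1 in R 4.3.3 fitted 4 group means on all 20 arrays, and the pooled contrast set the mean of the receptor groups against the mean of the control groups. The limma adjusted p-values are Benjamini-Hochberg over all genes. The code was tested on simulated data. Alternatives changed the variance model, normalization, gene filter, probe set rule, controls and arrays.

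Gene lists and their members were chosen with earlier results of these data known. Named genes are the receptors and study genes, the 12 largest called and separated rises and falls, and up to 4 called genes of smallest adjusted p per list. Another 17 were named after their values were seen: Fgg, Hpx, A2m, Idi1, Nr3c2, Rara, Slc43a2, Mafa, Slc2a2, Ero1b, Spink1, Bmp2, Tgfa, Slc24a3, Scn1a, Hao1 and Hsd17b4. Promoter windows come from RefSeq (GRCr8).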

Additional observations from a re-analysis of the deposited data

Results flagged for a closer look

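Of 472 groups of 5 arrays tested, over 118 named genes, 35 held an array far from the other 4 (Dixon's criterion), and chance flags about 1 group in 20. Nr4a3 replicate 2 was such an array for 9 genes, all of them low. It had a log2 intensity of 8.09 for Pim2, 9.01 for Stard5, 7.64 for Traf3ip1, 9.01 for Midn, 6.84 for Pdgfrb, 12.07 for Acly, 9.48 for Ddc, 6.08 for Rara and 12.35 for Slc2a2.

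Nr4a1 replicate 3 was low for all 3 fibrinogen chains, at 7.98 for Fga, 11.49 for Fgb and 11.55 for Fgg, and at 9.5 for Igfbp3. Other receptor arrays were Nr4a1 replicate 5 for Gas2 (9.86), Nr4a1 replicate 4 for Syt7 (6.92), Nr4a3 replicate 3 for Fos (9.07) and Nr4a3 replicate 5 for Irf7 (8.05).

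GFP replicate 4 was high for Ube2c (8.15), Nnat (9.24), Spc25 (6.97), Cdc20 (8.14) and Nr1h4 (8.02) and low for Nefm (8.02). Other GFP arrays were replicate 5 for Fos (8.61) and Scn1a (4.0), replicate 2 for Pole (5.55) and replicate 1 for Cdh17 (5.32). Among untreated arrays, replicate 1 was high for Slc2a2 (13.74) and Ero1b (13.34), replicate 2 for Fga (6.22), replicate 3 for Aldh1a1 (6.67) and replicate 5 for Cuzd1 (6.21). Replicate 3 was low for Midn (10.4), replicate 4 for Hnf4a (8.76) and replicate 5 for Il6r (8.67).

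The receptors differed, by the limma contrast between them, for 7 named genes, each higher with Nr4a1. The log2 differences were 1.645 for Gas2, 1.427 for Kcnd2, 1.826 for Gyg1, 0.609 for Cdkn2d, 0.725 for Acadvl, 0.965 for Aldh1a1 and 0.956 for Slc24a3.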

How the results depend on the processing

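Of the 112 named genes called, 72 kept direction and call under each of the 32 alternatives in which they were tested. Another 40 lost the call under at least 1, and 0 reversed. The alternative with only genes above the median level leaves out dimmer genes, so those were not tested under it. Leaving out single arrays gave 891 to 2064 genes higher and 423 to 1038 lower, 82 to 104 higher by at least 2-fold, and 134 to 336 separated higher and 31 to 54 lower. It gave 40 to 116 and 2 to 17 for Nr4a1 against Nr4a3, 499 to 1523 and 124 to 650 against GFP alone, 465 to 1523 and 163 to 778 against untreated alone, and 0 for GFP against untreated. Weighting arrays gave 2021 higher and 1251 lower, 1897 and 1231 against GFP alone, 1129 and 553 against untreated alone, and 208 and 66 between the receptors. Genes above the median level gave 706 higher, 50 by at least 2-fold, 86 separated higher and 445 higher against GFP. Testing all probe sets gave 899 lower, 139 higher by at least 2-fold, 208 and 48 separated, and 415 lower against GFP. GFP as the only controls gave 263 lower and 315 and 149 separated, and untreated as the only controls 631 higher, 292 lower and 78 separated lower, with fewer control arrays. Genes lower with Nr4a1 than with Nr4a3 numbered 3 with a trended and robust variance and 2 with the mean of probe sets. The other causes were not tested.

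With the replicate number as a block, 1003 genes were higher and 538 lower, 91 by at least 2-fold higher. The block gave 68 and 2 between the receptors, 651 and 220 against GFP and 588 and 270 against untreated, and 4 named genes lost their call. Deviations of same-numbered arrays correlated from -0.297 to 0.495 over 30 pairs, with 7 above 0.1. Differently numbered arrays were not compared, so whether the numbers pair the samples cannot be told from these values.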

Other observations

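Several further genes separated all 10 receptor arrays from all 10 controls and stand on none of the lists described. They were chosen after their values were seen. Among secreted growth factors, Bmp2, a bone morphogenetic protein, ran from 7.09 to 8.66 against 6.29 to 6.85, 2.78-fold higher (log2 1.47 ± 0.15, limma adjusted p = 2.19e-06), and its second probe set differed by 1.59. Tgfa, a ligand of the epidermal growth factor receptor, ran from 8.51 to 9.37 against 7.75 to 8.39 (log2 0.95 ± 0.09, adjusted p = 4.3e-07), with 0.92 for its second probe set.

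Ion handling genes were also among them. Slc24a3, a sodium, calcium and potassium exchanger, was 3.16-fold higher (log2 1.66 ± 0.14), although a dim second probe set differed by 0.001. Scn1a, a voltage-gated sodium channel, was 2.28-fold higher (log2 1.19 ± 0.14). The peroxisomal enzyme genes Hao1 and Hsd17b4 were 2.18-fold and 1.8-fold higher (log2 1.12 ± 0.15 and 0.85 ± 0.08).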
